A study of Mus musculus with 23 samples.

Results

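The 10 genes described here, *Chga*, *Chgb*, *Gcg*, *Pyy*, *Insl5*, *Cck*, *Sct*, *Sst*, *Tph1* and *Neurod1*, are genes of enteroendocrine cells. They were chosen by symbol, and all 10 were found among the 55449 genes of the count table. RNA of colon tissue was measured in 23 libraries of male *Cdx2Apc*f/w C57BL/6 mice, 6-8 weeks old at the start and fed a high-fat diet (HFD). The mice were colonized with *Bacteroides fragilis* BF638R bsh-, named BF BSHlow, or with BF638R bsh+, named BF BSHhigh, the same strain carrying a gene for bile salt hydrolase (BSH). There were 4 BSHlow and 4 BSHhigh libraries of normal colon at 2 weeks, 4 and 4 of non-tumor colon at 12 weeks, and 4 BSHlow and 3 BSHhigh libraries of tumors at 12 weeks. All groups share the HFD and the *Apc* allele that a Cre driven by the *Cdx2* promoter deletes in the intestinal epithelium, so no group is without them. The study describes the samples as independent but also calls the sample sizes pooled. The labels do not say whether the libraries come from separate mice or from pools. The p-values thus measure the spread between these libraries, which may be technical. The header of the count table repeats the names of 3 BSHlow tumors over 3 further columns. These were taken as the BSHhigh tumors, because a table of the study lists their values under that group, and are named a, b and c since their replicate numbers are not known. Each result on BSHhigh tumors rests on that assignment.

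Enteroendocrine cells are scattered hormone-secreting cells of the gut epithelium. They arise from secretory progenitors through the transcription factor *Neurog3*, followed by *Neurod1*, and release peptides or serotonin from dense-core granules when nutrients, fatty acids or bile acids reach their receptors. In the colon, L cells make glucagon-like peptides, peptide YY and insulin-like peptide 5, enterochromaffin cells make serotonin, and D cells make somatostatin. In bulk tissue, fewer cells of a type and less RNA per cell cannot be told apart.

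Libraries held 12401388 to 17903008 counts, with a median of 15874872, and a level is the count of a gene scaled to a common library total (CPM) with TMM factors of all 23 libraries. A gene was called where edgeR's quasi-likelihood test gave a Benjamini-Hochberg adjusted p below 0.05 with an absolute log2 fold change above 1. Epithelial markers were present in all libraries, their summed level over 10 genes lying between 4851 CPM in a BSHlow tumor and 20450 CPM in a BSHhigh normal colon. Summed smooth muscle markers lay between 15.96 and 227.9 CPM in normal colon at 2 weeks, between 1613 and 8968 CPM in non-tumor colon at 12 weeks and between 154.4 and 401.6 CPM in tumors, and the layers of the wall that were sampled are not given in the labels.

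Per kilobase of exon, the order of the members differed between the time points. In BSHlow normal colon at 2 weeks *Chgb* stood highest at 62.6 ± 16.9 CPM per kb (SD, n = 4), followed by *Pyy* at 52.4 ± 12.2, *Gcg* at 43.9 ± 10.4, *Sct* at 42.4 ± 6.36 and *Chga* at 38.1 ± 9.85 CPM per kb, and these neighbours lay within each other's spread. *Sst* at 8.08 ± 4.91 and *Insl5* at 7.92 ± 3.44 CPM per kb came next. In BSHlow non-tumor colon at 12 weeks the order was *Pyy* at 121.2 ± 20.7, *Insl5* at 73.1 ± 25.9, *Chgb* at 42.9 ± 12.0, *Chga* at 24.1 ± 4.72 and *Gcg* at 14.96 ± 5.50 CPM per kb. *Cck*, the cholecystokinin gene, was the lowest member at both times, at 0.77 ± 0.27 and 0.17 ± 0.06 CPM per kb.

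**Figure D1:**
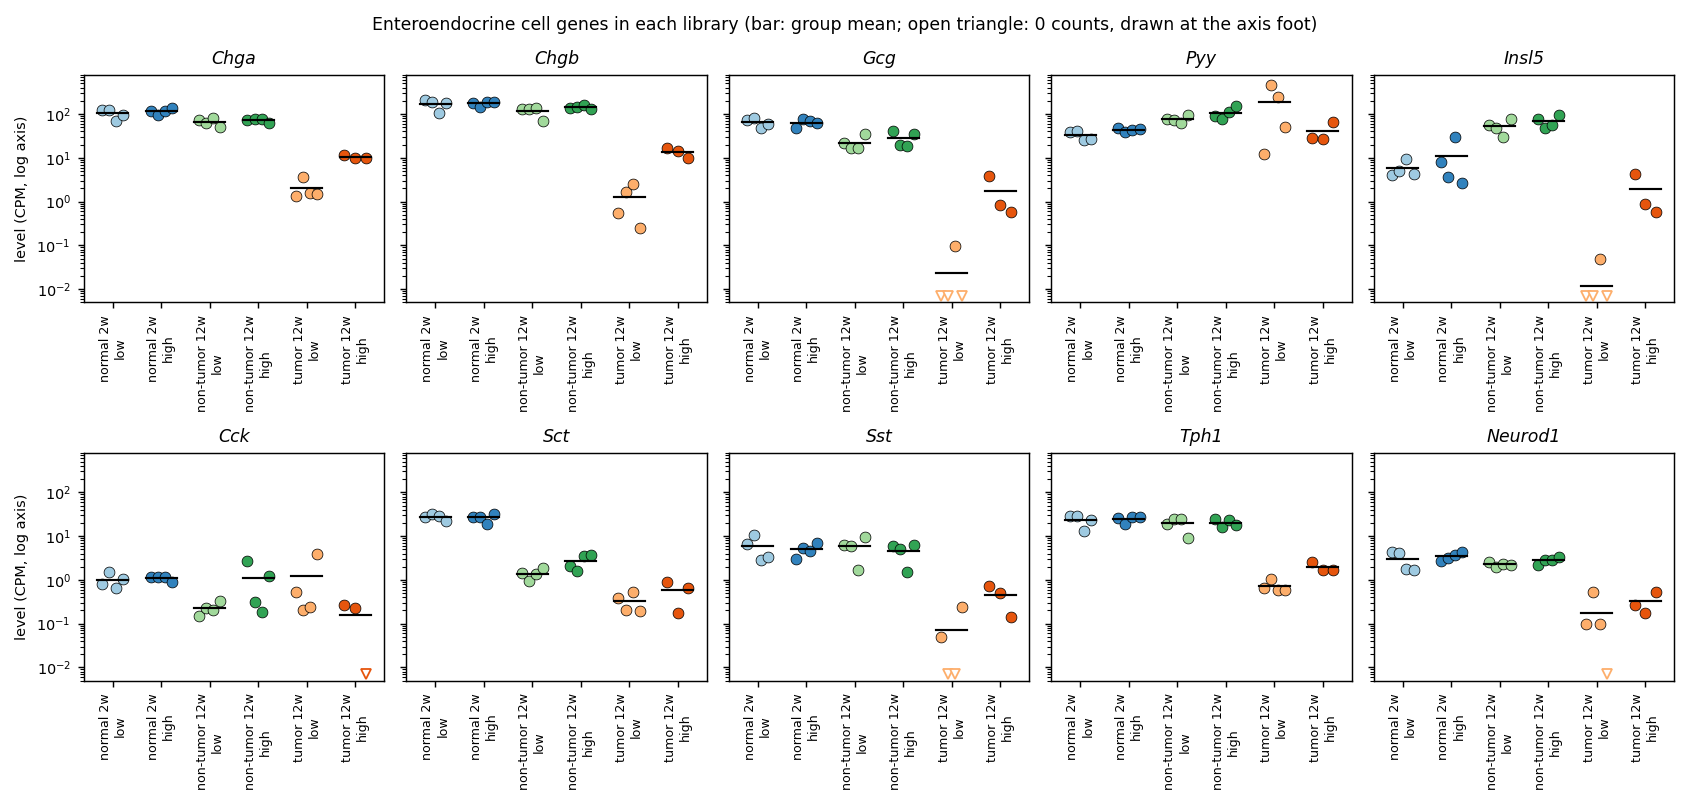
Level of each of the 10 genes in CPM (log axis) in every library, by group, with a bar at the group mean and open triangles for libraries with 0 counts. The 8 genes that fell sit lower in tumors than in non-tumor colon, *Sct* by the least, while *Pyy* in BSHlow tumors spreads from 12.2 to 463.6 CPM.

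The 250 bases before the transcription start, from RefSeq (GRCm38.p6), were searched for CAGATG, an E-box of the kind that basic helix-loop-helix factors such as NEUROD1 bind, and for TGACGTCA, the cAMP response element, on both strands. Start sites were found for all 10 members. The sequences of *Gcg* (chr2:62483654-62483903, minus strand), *Chga* (chr12:102554691-102554940, plus strand), *Pyy* (chr11:102107833-102108082, minus strand) and *Sct* (chr7:141279134-141279383, minus strand) are shown because *Gcg* and *Chga* carry the tumor results, *Pyy* departs from them and *Sct* carries the time result. They run 5′ to 3′ on the gene's strand, with matches in capitals.
Gcg: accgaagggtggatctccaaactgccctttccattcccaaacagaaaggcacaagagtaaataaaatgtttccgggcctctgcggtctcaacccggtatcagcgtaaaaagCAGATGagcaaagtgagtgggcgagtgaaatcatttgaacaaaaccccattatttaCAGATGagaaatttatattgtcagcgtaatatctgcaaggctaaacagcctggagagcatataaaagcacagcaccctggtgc
Chga: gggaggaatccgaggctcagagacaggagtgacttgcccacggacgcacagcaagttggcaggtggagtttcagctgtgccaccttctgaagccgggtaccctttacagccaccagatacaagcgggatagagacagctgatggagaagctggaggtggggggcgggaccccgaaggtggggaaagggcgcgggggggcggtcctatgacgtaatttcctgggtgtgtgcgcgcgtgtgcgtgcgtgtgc
Pyy: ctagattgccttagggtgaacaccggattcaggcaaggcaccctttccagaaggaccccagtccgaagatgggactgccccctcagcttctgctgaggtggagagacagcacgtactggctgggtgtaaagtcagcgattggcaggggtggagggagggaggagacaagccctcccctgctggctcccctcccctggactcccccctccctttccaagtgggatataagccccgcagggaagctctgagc
Sct: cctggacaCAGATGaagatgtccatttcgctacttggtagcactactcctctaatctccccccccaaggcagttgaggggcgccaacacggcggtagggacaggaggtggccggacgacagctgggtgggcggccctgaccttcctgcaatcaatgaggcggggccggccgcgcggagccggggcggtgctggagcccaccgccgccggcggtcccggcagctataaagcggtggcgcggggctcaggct
*Gcg* held CAGATG at 139 and at 83 bases before its start, *Sct* at 242 bases before, and the shown windows of *Chga* and *Pyy* held neither motif. Over the first start site of each member, 3 of 10 windows held CAGATG (*Gcg*, *Cck* and *Sct*), against 14.5% of 27025 mouse promoters of that length, and *Insl5* held it at 178 bases before its second start site. TGACGTCA was found in 2 of 10 (*Chgb* at 72 bases and *Sst* at 48 bases before the start), against 1.62% of promoters. Every CAGATG match is also a match of the wider E-box CANNTG, which 9 of 10 members and 66% of promoters held. A match is only a run of letters and was not tested for binding.

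Tumors were compared with non-tumor colon at 12 weeks within each colonization. In BSHlow mice 8 of the 10 genes fell and 0 rose, where 19.5% of the 16455 genes tested fell and 16.7% rose. In BSHhigh mice the same 8 genes fell, where 14.8% of genes fell and 14.6% rose. The median log2 fold change of the 10 genes was -4.93 in BSHlow and -3.23 in BSHhigh mice, beside 0.04 and 0.04 over all genes tested. The genes that fell in both were *Chga*, *Chgb*, *Gcg*, *Insl5*, *Sct*, *Sst*, *Tph1* and *Neurod1*. For each of them every tumor lay below every non-tumor library of its colonization, and the share of all genes separated in this way was not computed. The exceptions were *Pyy* and *Cck*.

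*Chga*, chromogranin A of the granule core (chr12:102554969-102565028, plus strand), measured 73.9, 62.0, 79.8 and 50.5 CPM in BSHlow non-tumor colon and 1.37, 3.63, 1.58 and 1.47 CPM in BSHlow tumors. In BSHhigh mice it measured 73.1, 76.5, 76.7 and 62.2 CPM in non-tumor colon and 11.8, 10.04 and 9.79 CPM in tumors. The tumor groups overlapped neither with non-tumor colon nor with each other. The log2 fold change was -5.07 (SE 0.26, adjusted p = 8.4e-09, edgeR) in BSHlow and -2.78 (SE 0.25, adjusted p = 1.3e-06) in BSHhigh mice.

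*Chgb*, chromogranin B (chr2:132781278-132795079, plus strand), measured 131.7, 132.5, 137.7 and 68.6 CPM in BSHlow non-tumor colon against 0.54, 1.66, 2.54 and 0.24 CPM in BSHlow tumors. In BSHhigh mice it measured 135.5, 143.5, 163.5 and 131.8 CPM against 16.7, 14.6 and 10.03 CPM. The fall was -6.57 (SE 0.46, adjusted p = 4.5e-08) on the log2 scale in BSHlow and -3.39 (SE 0.42, adjusted p = 1.4e-05) in BSHhigh mice. Without BSHlow tumor replicate 3 the first value was -7.21.

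*Tph1*, the tryptophan hydroxylase that limits serotonin synthesis in enterochromaffin cells (chr7:46644641-46672537, minus strand), measured between 9.16 and 25.2 CPM in BSHlow non-tumor colon and between 0.57 and 1.04 CPM in BSHlow tumors. In BSHhigh mice it measured 16.2 to 24.0 CPM in non-tumor colon and 1.67 to 2.61 CPM in tumors. The log2 fold changes were -4.78 (SE 0.33, adjusted p = 4.7e-08) and -3.35 (SE 0.34, adjusted p = 2.9e-06). *Neurod1*, the differentiation factor (chr2:79452521-79456751, minus strand), stood at 2.01 to 2.60 CPM and 2.20 to 3.36 CPM in non-tumor colon of BSHlow and BSHhigh mice. It was at 0.10, 0.52, 0.10 and 0 CPM in BSHlow tumors and at 0.26, 0.18 and 0.53 CPM in BSHhigh tumors. Its log2 fold changes were -3.66 (SE 0.62, adjusted p = 0.00013) and -3.11 (SE 0.65, adjusted p = 0.0010), and the first was -5.01 without BSHlow tumor replicate 2. *Neurod1* overlaps *Cerkl* on the same strand and *Gm26755* on the other, and its counts were whole in all libraries.

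*Gcg* (chr2:62474530-62483650, minus strand) encodes proglucagon, from which L cells cut GLP-1 and GLP-2. It had 293, 295, 242 and 526 counts in BSHlow non-tumor colon and 0, 0, 2 and 0 counts in BSHlow tumors. It had 655, 312, 303 and 460 counts in BSHhigh non-tumor colon, and the BSHhigh tumors stood at 3.75, 0.85 and 0.57 CPM. The pooled counts put the BSHlow tumor level 902-fold below non-tumor colon (95% exact conditional interval 249 to 7457, counting error only) and the BSHhigh level 17.0-fold below (13.9 to 20.95). Both falls were called, with adjusted p = 3.5e-07 and 5.7e-05.

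*Insl5*, the L cell peptide of the insulin and relaxin family (chr4:103017872-103026842, minus strand), had 762, 855, 444 and 1165 counts in BSHlow non-tumor colon and 0, 0, 1 and 0 counts in BSHlow tumors. In BSHhigh mice it stood at 76.2, 47.8, 55.9 and 96.2 CPM in non-tumor colon and at 4.33, 0.90 and 0.57 CPM in tumors. The pooled ratio was 4292-fold lower in BSHlow tumors (95% interval 769.9 to 169593, counting error only) and 36.8-fold lower in BSHhigh tumors (30.6 to 44.7). Both were called (adjusted p = 8.7e-08 and 5.3e-06). Without BSHlow tumor replicate 3 neither *Gcg* nor *Insl5* had a count in BSHlow tumors, and without BSHhigh tumor a their log2 fold changes in BSHhigh mice moved from -4.06 to -5.30 and from -5.19 to -6.54.

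*Sst*, somatostatin of D cells (chr16:23889573-23890958, minus strand), stood at 6.31, 5.87, 1.70 and 9.61 CPM in BSHlow non-tumor colon and at 0.05, 0, 0 and 0.24 CPM in BSHlow tumors. In BSHhigh mice it stood at 6.04, 5.07, 1.53 and 6.13 CPM in non-tumor colon and at 0.73, 0.49 and 0.14 CPM in tumors. The log2 fold changes were -6.20 (SE 0.88, adjusted p = 2.7e-05) and -3.36 (SE 0.80, adjusted p = 0.0026), and the first was -7.99 without BSHlow tumor replicate 4, which held 5 of the 6 counts. *Sct*, secretin (chr7:141278330-141279133, minus strand), was already low in non-tumor colon, at 0.92 to 1.88 CPM in BSHlow and 1.63 to 3.74 CPM in BSHhigh mice. It measured 0.20 to 0.53 CPM in BSHlow tumors and 0.18 to 0.89 CPM in BSHhigh tumors. Its log2 fold changes of -2.07 (SE 0.50, adjusted p = 0.0021) and -2.26 (SE 0.52, adjusted p = 0.0022) were the smallest among the 8 genes.

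*Pyy*, peptide YY of L cells (chr11:102106676-102107832, minus strand), measured 75.2, 72.6, 63.6 and 94.7 CPM in BSHlow non-tumor colon and 12.2, 463.6, 241.1 and 50.2 CPM in BSHlow tumors. Tumors thus stood above all non-tumor libraries in replicates 2 and 3 and below them in replicates 1 and 4, a 38.1-fold range. The log2 fold change was 1.29 (SE 0.72, adjusted p = 0.13) and was not called. In BSHhigh mice *Pyy* measured 89.1, 77.2, 111.9 and 150.4 CPM in non-tumor colon and 27.9, 27.4 and 67.0 CPM in tumors, which did not overlap. With the spread shared over the 15 libraries of 12 weeks the log2 fold change of -1.40 (SE 0.80, adjusted p = 0.15) was not called, and in a fit of the 7 BSHhigh libraries alone it was (adjusted p = 0.012). Without BSHlow tumor replicate 1 *Pyy* was called higher in BSHlow tumors (log2 fold change 1.68, adjusted p = 0.014) and lower in BSHhigh tumors (-1.42, adjusted p = 0.043). In BSHlow tumors the value was 0.37 (adjusted p = 0.65) without replicate 2, 0.32 with a replicate block and 0.25 by limma-voom, and was not called in these fits.

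*Cck* (chr9:121489824-121495694, minus strand) had low counts. There were 2 to 5 counts in each BSHlow non-tumor library, and BSHlow tumors stood at 0.54, 0.21, 0.24 and 3.87 CPM. Replicate 4 alone was far above the others, and without it the log2 fold change of 2.37 (SE 1.08, adjusted p = 0.068) became 0.49. BSHhigh non-tumor colon stood at 2.64, 0.31, 0.18 and 1.196 CPM and BSHhigh tumors at 0.26, 0.22 and 0 CPM, and the difference of -2.70 (SE 1.22, adjusted p = 0.074) was not called. The calls turned on single libraries: *Cck* was called higher in BSHlow tumors without BSHlow tumor replicate 2 (adjusted p = 0.041) or 3 (0.043), and lower in BSHhigh tumors without BSHlow tumor replicate 4 (0.024) or BSHhigh non-tumor replicate 3 (0.049). The BSHlow tumor with the highest *Cck* had 50.2 CPM of *Pyy*, and the one with the highest *Pyy* had 0.21 CPM of *Cck*.

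Markers of other tissue layers moved with these falls. All 8 smooth muscle markers fell in both colonizations, with medians of -4.80 and -4.18 on the log2 scale, as did 10 of 12 enteric neuron markers tested, with medians of -3.86 and -3.61. In BSHlow tumors the neuron marker *Vip* and the glia marker *Sox10* were at 0 counts in all 4 libraries. Summed neuron markers lay between 71.0 and 123.5 CPM in BSHlow non-tumor colon and between 11.5 and 15.4 CPM in BSHlow tumors, and between 69.7 and 120.3 CPM against 24.7 and 74.1 CPM in BSHhigh mice. Neurons also express *Chga*, *Chgb*, *Sst* and *Cck*, and the part of neurons in the members' falls was not tested. *Gcg*, *Pyy*, *Insl5* and *Sct* are hormones of the epithelium. The summed epithelial markers differed by -0.85 on the log2 scale in BSHlow and by -0.67 in BSHhigh tumors, with no test of the sum. Of the 10 markers in it, 5 fell and 1 rose in BSHlow and 2 fell and 1 rose in BSHhigh tumors, with medians of -0.96 and -0.68. *Krt20*, a keratin of differentiated epithelium, fell by 4.61 and *Cdx2*, an intestinal identity factor, by 3.91 in BSHlow tumors, while *Krt18*, a keratin of simple epithelium, rose by 1.51. Of 10 colonocyte markers 8 fell and 1 rose in BSHlow and 7 fell and 1 rose in BSHhigh tumors, with medians of -5.97 and -2.84. All 9 goblet cell markers fell in both, with medians of -6.19 and -3.06, and squamous epithelium markers were higher, 6 of 6 tested in BSHlow and 5 of 6 in BSHhigh mice. Of 11 mast cell markers, cells that can also express *Tph1*, 5 rose and 2 fell in BSHlow and 4 rose and 1 fell in BSHhigh tumors, and of 6 tuft cell markers tested 1 rose in each while 2 and 1 fell.

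**Figure D2:**
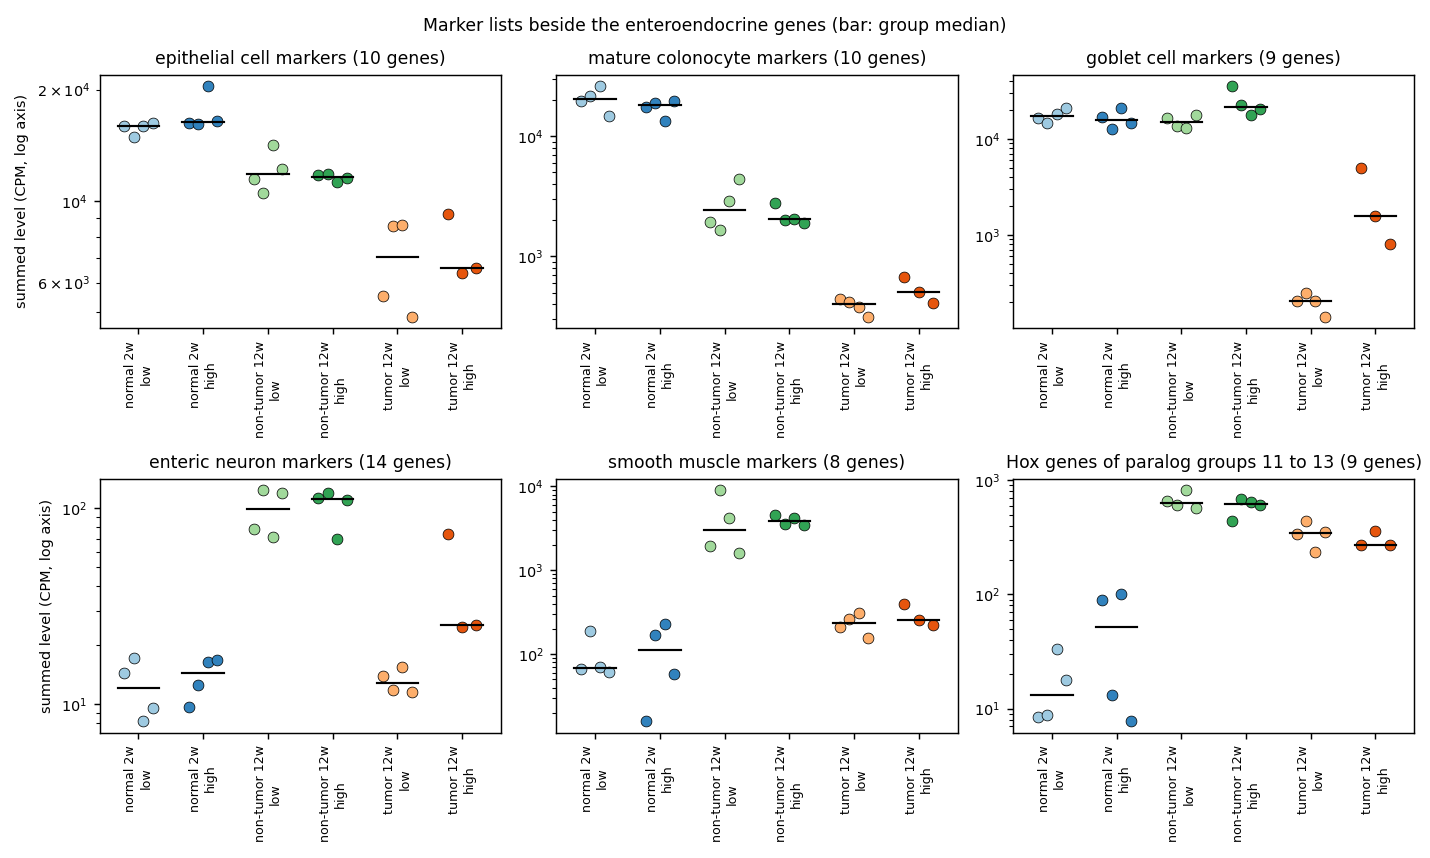
Summed level in CPM (log axis) of 6 marker lists in every library, by group, with a bar at the group median. Goblet cell markers fell from between 13003 and 17886 CPM in BSHlow non-tumor colon to between 138.9 and 244.9 CPM in BSHlow tumors, and stood at 798.4 to 4957 CPM in BSHhigh tumors.

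The genes around the members in the same cells were read from lists. Of 20 genes of granules and prohormone processing, 14 fell and 2 rose in BSHlow tumors and 12 fell and 2 rose in BSHhigh tumors, with medians of -2.83 and -2.26. *Pcsk2*, the prohormone convertase that makes glucagon, fell, with log2 fold changes of -6.85 (SE 0.88) in BSHlow and -5.75 (SE 0.89) in BSHhigh tumors. *Scg3*, a granin that sorts cargo to granules, fell by 5.71 (SE 0.37) in BSHlow tumors. *Cadps*, which primes dense-core vesicles for release, rose by 4.12 (SE 0.42) in BSHhigh tumors, from 4.47 to 78.2 CPM. It is named there for the size of its change, and 2 genes of the list rose in BSHlow tumors too. The median summed level of the list was 465.4 CPM in non-tumor colon and 516.6 CPM in tumors of BSHlow mice. In BSHhigh mice it was 483.3 and 400.2 CPM.

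Of 20 enteroendocrine transcription factors tested, 11 fell and 3 rose in each colonization, with medians of -2.31 and -1.60. *Lmx1a*, the factor of enterochromaffin cells, had 0 counts in all BSHlow tumors and fell by 4.53 (SE 0.65) in BSHhigh tumors. *Nkx2-2*, which specifies several enteroendocrine types, fell by 5.72 (SE 0.70) and *Fev*, a serotonin lineage factor, by 4.58 (SE 0.60) in BSHlow tumors. *Prox1*, which is also expressed by lymphatic endothelium and intestinal tumors, rose by 5.87 (SE 0.47) in BSHlow and 6.10 (SE 0.49) in BSHhigh tumors, reaching 294.8 and 279.6 CPM. The list thus moved in both directions, and *Prox1*, the only riser named here, is not restricted to these cells.

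Of 13 sensory receptors tested, 8 fell and 2 rose in each colonization. *Gpr119*, the receptor for fatty acid amides that L cells carry, had 0 counts in all BSHlow tumors, and fell from a mean of 0.72 to 0.03 CPM in BSHhigh mice, while the irritant receptor *Trpa1* rose by 3.28 (SE 0.37) and 3.03 (SE 0.39). Of 15 receptors and transporters for the members' products, 9 fell and 2 rose in each. *Slc6a4*, the serotonin transporter, fell by 7.03 (SE 0.48) in BSHlow tumors, and *Sstr1*, a somatostatin receptor, fell in both (-7.16, SE 0.65, and -5.15, SE 0.66). Of 9 further hormone genes 5 were tested, of which 2 fell and 2 rose in BSHlow and 2 fell and 1 rose in BSHhigh tumors. *Ppy*, pancreatic polypeptide, and *Tac1*, the substance P precursor that neurons also make, were those that fell in both. *Nmb* rose by 1.32 (SE 0.46) in BSHlow tumors, from a mean of 0.50 to 1.28 CPM. The median log2 fold changes of this list were above 0, at 1.32 in BSHlow and 1.19 in BSHhigh tumors.

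The next comparison asked what BSH changed in tumors. Of the 7 members tested (*Cck*, *Sst* and *Neurod1* did not pass the filter on low counts), *Chga* was called higher in BSHhigh than in BSHlow tumors and 0 were called lower, where 0.463% of the 15325 genes tested were higher. *Chga* differed by 2.38 on the log2 scale (SE 0.35, adjusted p = 0.042), from a mean of 2.01 to 10.5 CPM. For 5 of the 7 genes, *Chga*, *Chgb*, *Gcg*, *Insl5* and *Tph1*, every BSHhigh tumor lay above every BSHlow tumor, as for 7.91% of all genes tested. *Gcg* and *Insl5* passed the filter only through their counts in BSHhigh tumors, so they could enter this count only as higher. The differences of *Chgb* (3.46, SE 0.63, adjusted p = 0.059) and *Tph1* (1.48, SE 0.35, adjusted p = 0.11) were not called. *Gcg* had 103 counts in the 3 BSHhigh tumors and 2 in the 4 BSHlow tumors, a ratio of 66.9 (95% interval 18.05 to 559.6, counting error only). *Insl5* had 115 against 1, a ratio of 149 (26.3 to 5949, counting error only). BSHhigh tumor a held 72 of the 103 and 83 of the 115. The log2 differences were 5.80 and 6.70 (adjusted p = 0.063 and 0.054), or 4.54 and 5.33 without that tumor and 8.13 and 8.29 without BSHlow tumor replicate 3, which held the BSHlow counts. *Pyy* had the opposite sign, at 27.4 to 67.0 CPM against 12.2 to 463.6 CPM, with a log2 difference of -2.22 (SE 1.06, adjusted p = 0.45) that became -1.30 without BSHlow tumor replicate 2 and -1.31 by limma-voom, and *Sct* differed by 0.77 (SE 0.62, adjusted p = 0.67).

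These calls depended on single libraries. *Chga* lost its call without BSHlow tumor replicate 1, 3 or 4 and without BSHhigh tumor a or b, with adjusted p between 0.087 and 0.13 and log2 differences between 2.25 and 2.43. Without BSHhigh tumor c, 3 members were called, where 234 genes in all were called higher instead of 71. By DESeq2 and with all 23 libraries in 1 fit, 5 members were called higher, where 489 and 566 genes were. On leaving out any other tumor, 0 to 6 genes in all were called higher.

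The BSHhigh effect in tumors was also set against that in non-tumor colon in 1 fit of the 15 libraries of 12 weeks. *Chga*, *Chgb*, *Gcg* and *Insl5* were called, each with a larger effect in tumors, and 0 members were called in the other direction, where 0.972% of the 16455 genes had a larger effect. The difference of effects was 2.29 for *Chga* (SE 0.33, adjusted p = 0.0069), 3.18 for *Chgb* (SE 0.56, adjusted p = 0.017), 5.42 for *Gcg* (SE 1.17, adjusted p = 0.041) and 6.24 for *Insl5* (SE 1.36, adjusted p = 0.043). This fit uses the tumors of the comparison above and is no separate evidence. *Tph1* at 1.43 (SE 0.44, adjusted p = 0.20), *Sst* at 2.84 (SE 1.16, adjusted p = 0.42), *Pyy* at -2.69 (SE 1.08, adjusted p = 0.41) and *Cck* at -5.07 (SE 1.63, adjusted p = 0.24) were not called. Without BSHlow tumor replicate 4 the values were 4.61 for *Sst* and -3.20 for *Cck*, without BSHlow tumor replicate 2 that of *Pyy* was -1.80, and *Tph1* was called without BSHlow non-tumor replicate 4 (1.66, adjusted p = 0.035). *Chga* and *Chgb* kept their calls whichever replicate was left out. *Gcg* kept it only without BSHhigh tumor b or c, and *Insl5* only without those or BSHlow non-tumor replicate 3. Without BSHlow tumor replicate 3 the difference of effects was 3.80 for *Chgb*, 7.55 for *Gcg* and 7.66 for *Insl5*, and without BSHhigh tumor a it was 4.18 for *Gcg* and 4.90 for *Insl5*. By limma-voom 0 members and 0 of all genes were called, with 1359 genes at an unadjusted p under 0.05.

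Goblet cell and colonocyte markers were also higher in BSHhigh tumors. All 9 goblet cell markers and 7 of 9 tested colonocyte markers were higher in every BSHhigh than in every BSHlow tumor, as for 7.91% of all genes tested. Of these, 2 and 3 were called. The called colonocyte markers *Slc13a2*, *Aqp8* and *Slc26a3* had at most 5, 4 and 10 counts in a BSHlow tumor. They passed the filter only through BSHhigh tumors, so they could be called only as higher. Of 6 squamous epithelium markers tested all had a lower value in BSHhigh tumors, with a median of -1.56, and of 6 tuft cell markers 2 had a higher one, with a median of -0.27, and 0 of either list were called. *Slc26a3*, the chloride exchanger of surface colonocytes, rose from a mean of 0.25 to 19.5 CPM and *Zg16*, a goblet cell lectin, from 1.95 to 435.5 CPM. The order of the BSHhigh tumors was the same for summed goblet markers, at 4957, 1559 and 798.4 CPM in a, b and c, as for *Gcg* and *Insl5*, and a also had the highest summed neuron markers. Summed epithelial markers were 9201, 6370 and 6583 CPM in a, b and c, and 4851 to 8615 CPM in BSHlow tumors. Of the enteroendocrine lists, *Scg3* (2.43, SE 0.49) and *Scg5* (2.11, SE 0.39) among granule genes and *Slc6a4* (3.25, SE 0.63) among receptors and transporters had a called difference of effects, and 0 of 20 transcription factors had. Their part in the members' differences was not tested.

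**Figure D3:**
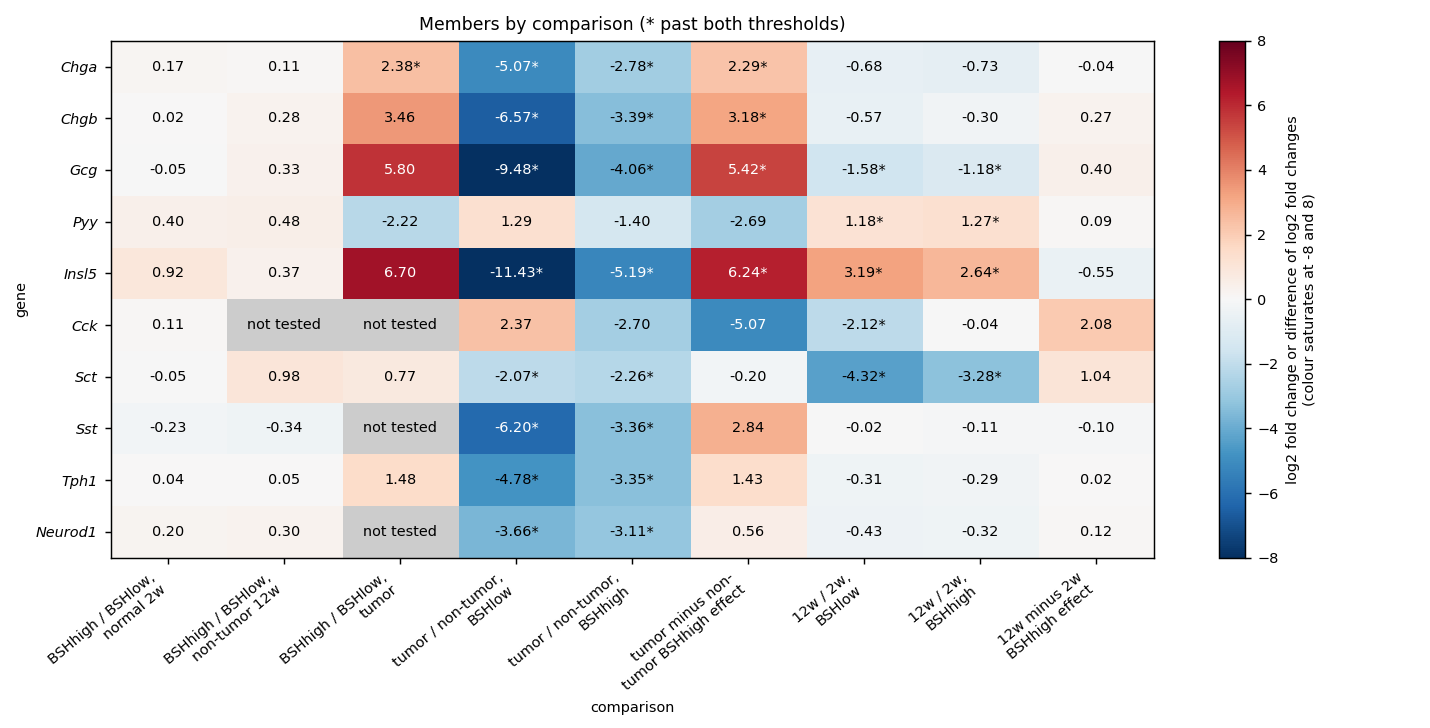
Log2 fold change of each member in 7 comparisons and the difference of log2 fold changes in 2, with a star on those past both thresholds. *Pyy* (1.29 and -1.40) and *Cck* (2.37 and -2.70) are the members with opposite signs in the tumor columns of BSHlow and BSHhigh mice.

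Away from tumors no member was called for BSH. At 2 weeks 0 of 10 members were called, where 0.00727% of the 13753 genes were, and 935 genes had an unadjusted p under 0.05. In non-tumor colon at 12 weeks 0 of 9 tested members were called, where 0% of the 14934 genes were and 1378 had an unadjusted p under 0.05. *Pyy* measured 38.9, 40.5, 25.8 and 27.0 CPM in BSHlow and 47.5, 38.1, 44.1 and 46.7 CPM in BSHhigh normal colon. Its log2 difference was 0.40 (SE 0.16, unadjusted p = 0.034, adjusted p = 0.72) at 2 weeks and 0.48 (SE 0.21, unadjusted p = 0.048, adjusted p = 0.53) at 12 weeks. *Sct* differed by 0.98 at 12 weeks (SE 0.35, unadjusted p = 0.023, adjusted p = 0.49), with libraries at 1.41, 0.92, 1.36 and 1.88 CPM in BSHlow and at 2.08, 1.63, 3.60 and 3.74 CPM in BSHhigh non-tumor colon. Log2 differences lay between -0.23 and 0.92 for the 10 members at 2 weeks and between -0.34 and 0.98 for the 9 tested in non-tumor colon, and the groups overlapped for each of these. *Cck* did not pass the filter in non-tumor colon, where it had 66 counts in the 4 BSHhigh libraries, 42 of them in replicate 1, against 14 in the 4 BSHlow libraries, a ratio of 4.66 (95% interval 2.59 to 8.98, counting error only). With no filter its log2 difference was 2.20 and was not called (adjusted p = 0.63). *Insl5* had the value 0.92 (SE 0.67, adjusted p = 0.86), and its libraries ranged 11.2-fold in BSHhigh normal colon. The BSHhigh effect at 12 weeks minus that at 2 weeks was called for 0 members and for 0% of 15533 genes, with member differences between -0.55 and 2.08 and the largest for *Cck* (2.08, SE 0.88, adjusted p = 0.63) and *Sct* (1.04, SE 0.38, adjusted p = 0.56).

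Non-tumor colon at 12 weeks was then compared with normal colon at 2 weeks. In BSHlow mice 3 members fell and 2 rose, where 8.06% of the 15533 genes fell and 17% rose. In BSHhigh mice 2 fell and 2 rose, where 7.56% fell and 16.8% rose. *Sct* and *Gcg* fell and *Pyy* and *Insl5* rose in both, and *Cck* fell in BSHlow mice. Granins, *Tph1*, *Neurod1* and *Sst* were not called. The 2 age groups also differ in time on the diet, in tissue make-up and in genes of position along the gut. These cannot be told apart.

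*Sct* measured 27.8, 31.3, 28.5 and 21.6 CPM in BSHlow and 27.9, 27.6, 18.5 and 32.7 CPM in BSHhigh normal colon, and at most 3.74 CPM in non-tumor colon. All 8 libraries of 12 weeks lay below all 8 of 2 weeks, and the log2 fold change was -4.32 (SE 0.29, adjusted p = 7.3e-08) in BSHlow and -3.28 (SE 0.27, adjusted p = 4.5e-07) in BSHhigh mice. *Gcg* stood at 74.5, 81.8, 47.4 and 58.8 CPM in BSHlow and at 49.1, 76.6, 69.3 and 60.9 CPM in BSHhigh normal colon. At 12 weeks it stood at 21.7, 17.0, 16.5 and 34.2 CPM and at 41.2, 19.5, 18.5 and 34.4 CPM, again without overlap. Its log2 fold changes were -1.58 (SE 0.28, adjusted p = 0.00031) and -1.18 (SE 0.28, adjusted p = 0.0025).

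*Insl5* stood at 4.06, 5.09, 9.42 and 4.38 CPM in BSHlow normal colon and at 56.6, 49.2, 30.3 and 75.7 CPM in BSHlow non-tumor colon. In BSHhigh mice it stood at 8.12, 3.64, 29.2 and 2.62 CPM at 2 weeks, and the lowest library of 12 weeks was at 47.8 CPM. The log2 fold changes were 3.19 (SE 0.60, adjusted p = 0.00046) and 2.64 (SE 0.57, adjusted p = 0.0013), and the second was 3.85 without BSHhigh normal replicate 3. *Pyy* rose by 1.18 (SE 0.20, adjusted p = 0.00023) and 1.27 (SE 0.20, adjusted p = 0.00012) on the log2 scale, and neither was called with all 23 libraries in 1 fit (adjusted p = 0.12 and 0.098). *Cck* went from 0.65 to 1.48 CPM down to 0.15 to 0.32 CPM in BSHlow mice, a log2 fold change of -2.12 (SE 0.67, adjusted p = 0.016) that was not called with all 23 libraries in 1 fit (adjusted p = 0.069), and its change in BSHhigh mice was -0.04 (SE 0.58). *Chga* passed the p threshold but not the fold limit, with log2 fold changes of -0.68 (SE 0.18, adjusted p = 0.0056) and -0.73 (SE 0.18, adjusted p = 0.0037).

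Genes of position along the gut and of the wall moved with time too. Of 6 tested *Hox* genes of paralog groups 11 to 13, which mark the most distal colon, 5 rose in BSHlow and 4 in BSHhigh mice, with medians of 6.09 and 4.80 on the log2 scale, and 0 fell. *Hoxd13* rose from 0.08 to 101.0 CPM in BSHlow mice. Summed, these *Hox* genes stood at 7.77 to 101.0 CPM in normal colon and at 435.4 to 815.6 CPM in non-tumor colon. Within normal colon the highest summed *Hox* level of each colonization, at 33.0 CPM in BSHlow replicate 3 and 101.0 CPM in BSHhigh replicate 3, stood in the libraries with the highest *Insl5*. All 8 smooth muscle markers rose, with medians of 5.49 and 5.25, and 10 and 11 of 12 neuron markers rose. *Cdx2* fell in both (-4.63, SE 0.47, and -3.79, SE 0.45), and *Nts*, the neurotensin hormone gene of distal small intestine and proximal colon, fell in both (-7.64, SE 0.66, and -7.60, SE 0.64), from 59.9 to 0.30 CPM and from 70.4 to 0.36 CPM. The part of the sampled segment and layers in the members' changes was not tested.

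Of 12 sensory receptors tested, 1 was higher and 2 lower at 12 weeks in BSHlow mice, and 2 and 2 in BSHhigh mice. The mechanosensitive channel *Piezo2* rose by 2.77 (SE 0.49) and 2.74 (SE 0.49) on the log2 scale. The short-chain fatty acid receptor *Ffar3* fell at 12 weeks, from a mean of 2.81 to 0.73 CPM in BSHlow and from 2.52 to 0.45 CPM in BSHhigh mice. Of 20 granule genes, 10 and 9 rose and 1 fell in each, led by *Pcsk2* (4.99, SE 1.02) in BSHlow mice and *Scg2* (4.19, SE 0.50) in BSHhigh mice, both also genes of neurons. Of 20 transcription factors 5 and 4 rose and 0 fell.

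The make-up of the hormone transcripts was followed as each hormone's share of the summed CPM per kb of *Gcg*, *Pyy*, *Insl5*, *Cck*, *Sct* and *Sst*. In BSHlow normal colon *Pyy* held 33.5% ± 2.37, *Gcg* 28.2% ± 3.17, *Sct* 27.5% ± 3.62 and *Insl5* 5.36% ± 2.95 (SD, n = 4). In BSHlow non-tumor colon *Pyy* held 56.1% ± 5.48, *Insl5* 32.6% ± 4.22, *Gcg* 6.71% ± 0.92 and *Sct* 1.002% ± 0.26 (n = 4). BSHhigh mice stood close by, with *Pyy* at 39.6% ± 4.29 and 57.4% ± 6.35 and *Insl5* at 8.15% ± 8.75 and 32.1% ± 3.51 at the 2 times (n = 4 each). In BSHlow tumors *Pyy* made up 94.7 to 99.9% in all 4 libraries, whether its own level was 12.2 or 463.6 CPM. In BSHhigh tumors it made up 80.0, 93.6 and 97.8%, with *Insl5* at 10.8, 2.68 and 0.73% and *Gcg* at 4.54, 1.23 and 0.35%. Shares were not tested.

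**Figure D4:**
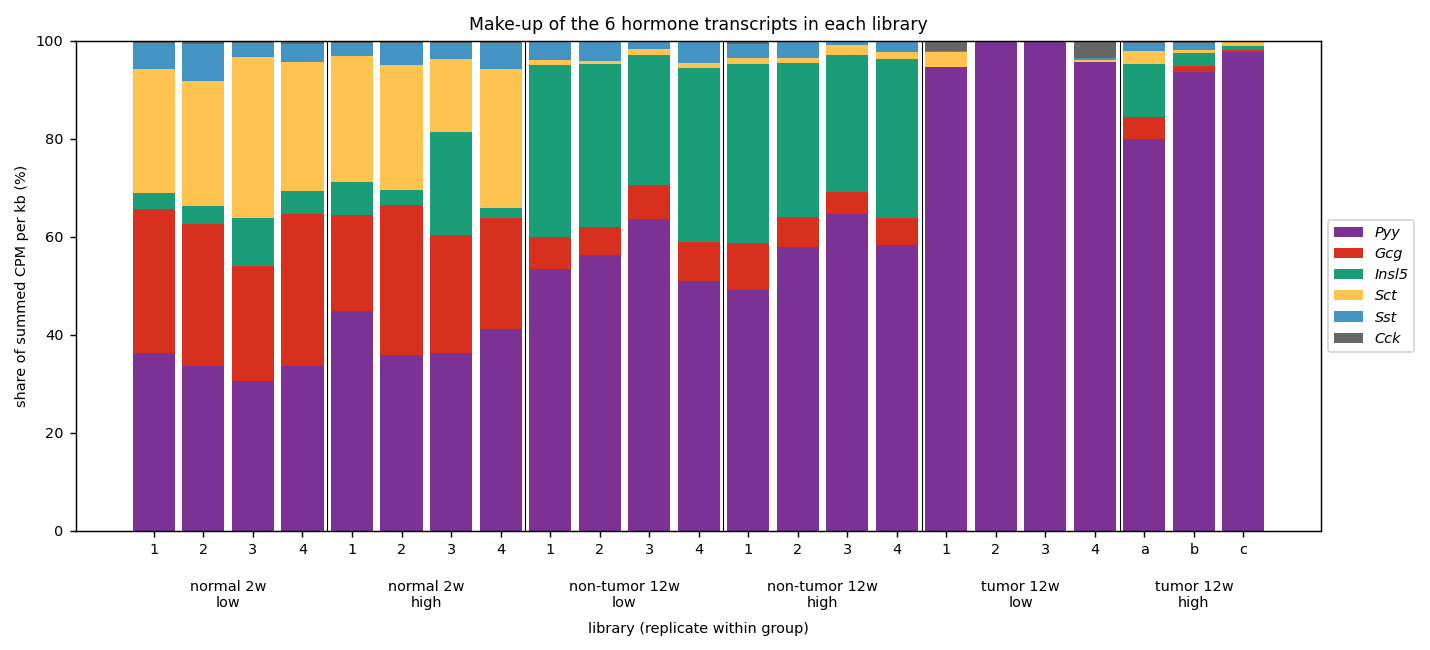
Share in percent of the summed CPM per kb of 6 hormone transcripts in each of the 23 libraries, by group. *Pyy*, *Gcg* and *Sct* fill most of each bar at 2 weeks, *Pyy* and *Insl5* at 12 weeks, and *Pyy* at least 94.7% in BSHlow tumors.

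Within groups the members did not vary as 1 block. After subtracting each group's mean log2 CPM over the 23 libraries, *Chga* followed *Tph1* (Pearson's r = 0.77), *Neurod1* (0.71) and *Chgb* (0.59), and *Gcg* followed *Sst* (0.56) and *Insl5* (0.54), while *Chga* and *Gcg* had r = 0.01. These are descriptions over libraries that share groups and depth, with no test. Among 14400 genes with a mean of at least 1 CPM, the 3 most like *Gcg* were *Tmem139* (0.87), *Tm9sf2* (0.86) and *Cdx2* (0.86), and the 3 most like *Pyy* were *Kctd3* (0.88), *Pgk1* (0.83) and *Tiparp* (0.82). *Chga* was most like *Bcl2l14* (0.83), *Galnt4* (0.81) and *Gm3604* (0.78), and the last was also among the 3 most like *Tph1* (0.78), after *Fam118b* (0.83) and *Zfp35* (0.80). The nearest genes were *Cstf1* (0.85) for *Chgb*, *Txn1* (0.87) for *Insl5*, *Stx7* (0.84) for *Cck*, *A430005L14Rik* (0.72) for *Sct*, *Ric3* (0.85) for *Sst* and *Ugt2b35* (0.83) for *Neurod1*.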

How the data were processed

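Libraries of colon RNA were prepared with an Illumina stranded kit, given as total RNA in the labels and as mRNA in the methods. Per the labels and methods, Cutadapt trimmed the reads and STAR mapped these on mm10. The authors deposited expected counts from RSEM, without normalization (versions not given in the sources used here). Of the deposited values 4.24% were not whole, and counts were rounded. *Fgf6* was left out because 1 cell holds text, as was 1 empty row. All 55449 identifiers were those of GENCODE M21 (GRCm38). Over the 3 columns taken as BSHhigh tumors the header repeats names of BSHlow tumors. Their group comes from the study's supplementary table, and which replicate each is is not known.

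Tests used edgeR 4.0.16 (TMM, filterByExpr with a minimum count of 10, quasi-likelihood) across all genes, with R 4.3.3. SE is the absolute log2 fold change over the square root of F. BSHhigh and BSHlow were compared in fits of their own groups, tumors in the 15 libraries of 12 weeks and times in 16 libraries. DESeq2 1.42.0, limma-voom (limma 3.58.1), other scalings, no filter, all libraries together, a replicate block and leaving out each replicate were alternatives. The code was tested on simulated data. Ratios of summed counts carry exact conditional 95% binomial intervals, which leave out the spread between libraries. Levels between genes were divided by exon-union length.

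The members, the lists and their rules were chosen with earlier results of these data known. All members are named in each comparison, and from the other 15 lists up to 4 called genes with the largest change and no overlap between groups. The 3 genes most like each member were taken by correlation. Replicates of 1 group differed beyond counting noise in every pair.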

Additional observations from a re-analysis of the deposited data

Results flagged for a closer look

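In 50 groups of 4 libraries that were examined, 8 held a library far from the other 3. Chance gives about 1 in 20 for normally distributed values, a rate that does not hold for skewed levels or levels near 0. Among BSHlow tumors, *Chga* stood at 3.63 CPM in replicate 2 (next 1.58) and *Tph1* at 1.04 CPM in the same library (next 0.64). *Cck* stood at 3.87 CPM in BSHlow tumor replicate 4 (next 0.54). BSHlow tumor replicate 3 held the group's only counts of *Gcg*, at 0.0958 CPM, and of *Insl5*, at 0.0479 CPM. Where all other libraries of a group hold 0 counts, any count is flagged. *Chgb* stood at 68.6 CPM in BSHlow non-tumor replicate 4, below the next library at 131.7 CPM. In BSHhigh normal colon *Cck* was low in replicate 4 at 0.872 CPM (next 1.16) and *Tph1* in replicate 2 at 18.5 CPM (next 26.4).

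The BSHhigh effect differed between tumor and non-tumor colon, by edgeR's test of the difference, by 2.29 on the log2 scale for *Chga*, 3.18 for *Chgb*, 5.42 for *Gcg* and 6.24 for *Insl5*. *Gcg* and *Insl5* each lost this call in 14 of 22 alternatives, and limma-voom called 0 of 16455 genes.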

How the results depend on the processing

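The 16 calls of members between tumor and non-tumor colon stood under every alternative run. The count called higher in BSHhigh than BSHlow tumors, 1 in the report, was 5 by DESeq2, 4 with no filter on low counts, 5 with all 23 libraries in 1 fit and 0 to 3 on leaving out a replicate. Over all genes it was 489, 308, 566 and 0 to 234 under these, against 71. The count called higher in BSHlow tumors than non-tumor colon, 0 in the report, was 1 (*Cck*) by DESeq2, with library totals alone and with all 23 libraries, and 0 to 1 on leaving out a replicate. For the BSHhigh effect in tumor minus that in non-tumor colon, 4 in the report, it was 0 by limma-voom and 2 to 4 on leaving out a replicate, and DESeq2 called 1 member (*Cck*) in the other direction, 0 in the report. From 2 to 12 weeks the count higher, 2 in the report, was 1 in BSHlow and 1 in BSHhigh mice with all 23 libraries (*Pyy* lost its call in both), the count lower in BSHlow mice went from 3 to 2 there (*Cck*, -2.12, adjusted p = 0.069), and the count lower in BSHhigh mice, 2 in the report, was 1 with library totals alone. The cause of these changes was not tested. Library totals alone moved the median of all genes by 0.33 and 0.30 on the log2 scale for tumors in BSHlow and BSHhigh mice and by 0.23 and 0.28 for time.

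Values that were not called also changed sign. *Sst* with time in BSHlow mice was 0.000176 by DESeq2, 0.000236 with RLE scaling, 0.0342 with upper-quartile scaling, 0.24 with library totals and -0.36 to 0.44 on leaving out a replicate. *Sst* in BSHhigh mice was 0.15 with library totals and -0.28 to 0.18 on leaving out a replicate. *Cck* with time in BSHhigh mice was 0.00966 with upper-quartile scaling, 0.21 with library totals and -1.01 to 0.31 on leaving out a replicate. Leaving out a replicate gave -0.27 to 1.27 for *Insl5* by BSH at 2 weeks and -0.63 to 0.25 for the difference of BSHhigh effects of *Sct*. Of 432 refits of values given as ranges or counts, 45 changed sign and 0 were called.

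Same-numbered libraries correlated between -0.22 and 0.32 in their deviations, with the own number best in 5 of 20 pairs. Most of these pairs join different colonizations or times, so only BSHlow non-tumor colon and tumors could share mice. There r was 0.18, -0.11, 0.01 and 0.12 in replicates 1, 2, 3 and 4, with the own number best in 1 and 4. This cannot decide whether they are pairs, and the main fits took the numbers as unpaired. With a replicate block the members called stayed 0 for BSH at 2 weeks and in non-tumor colon, 8 lower and 0 higher in BSHlow tumors, and 2 higher with 3 and 2 lower for time in BSHlow and BSHhigh mice. No paired analysis was possible for BSHhigh tumors because their columns carry no numbers of their own. A fit of the 8 BSHlow libraries without a block, added after seeing the data, gave 8 lower and 0 higher. Under 10 counts in a group, as for *Gcg*, *Insl5* and *Sst* in BSHlow tumors, the size of a fall is limited by depth.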
